A study of Homo sapiens with 38 samples.

Results

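The genes described here are the replication-dependent histone genes, taken as every row of the gene table whose symbol begins with HIST1H, HIST2H, HIST3H or HIST4H, without names that end in PS and digits. They came to 75 of 43412 gene symbols, and 13 further rows with the histone prefix were dropped by the suffix rule. The 75 members comprise 6 linker histone H1 genes, 17 H2A, 22 H2B, 15 H3 and 15 H4 genes. By symbol in GENCODE release 29 (GRCh38), 54 lie in the HIST1 cluster on chromosome 6, 16 in HIST2 and 4 in HIST3 on chromosome 1, and 1, HIST4H4, on chromosome 12. GENCODE lists 69 as protein coding and 6 as pseudogenes whose symbols carry no PS suffix.

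All samples were H9, an established human embryonic stem cell line, kept on Geltrex in mTeSR1 and seeded on Matrigel at 100% confluency. After 16 h the medium was replaced by RPMI1640 with B27 lacking vitamin A, renewed every 24 h, with 1 of 3 activators of canonical Wnt signalling. The first was 10 µM CHIR99021, an inhibitor of the kinase GSK3, sampled at 8, 16, 24, 48 and 72 h. In the second, called bcat, 1 µg/ml doxycycline switched on deltaN90, a beta-catenin mutant lacking its amino-terminal stretch, from a stably integrated doxycycline-regulated construct, sampled at the same hours. Other cultures received 240 ng/ml recombinant Wnt3a, sampled at 8, 24, 48, 72, 96 and 120 h. The 0 h cultures were separate for each arm, so the bcat 0 h cells carry the construct and the other 0 h cells do not. A culture given the new medium alone was not analysed here, so what an activator did and what the change of medium did cannot be told apart. Whether the bcat line is 1 clone or a pool is not given in the sources used here.

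Replication-dependent histone genes supply the core and linker histones that package newly copied DNA, and they are transcribed mainly in S phase, when the factor NPAT at the histone locus body recruits the machinery after phosphorylation by cyclin E with CDK2. Their mRNAs as a rule end in a short stem-loop in place of a poly(A) tail. Stem-loop binding protein (SLBP) holds that stem-loop through processing, translation and decay, and the transcripts are destroyed when replication stops. Total RNA was sequenced with a stranded kit (TruSeq Stranded Total RNA), which does not select for poly(A) and so retains such transcripts. The assay reads bulk RNA, so more cells in S phase and more histone mRNA per cell cannot be told apart.

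The stem-loop is shown because it is the element by which these mRNAs are known, and because the forms found in H4 genes differ from those of the other classes. It was searched as its paired 16-base form in 206694 GENCODE transcripts and found in 70, which included transcripts of 35 of the 75 members. Of the 40 members without it, 34 have only transcript models whose length is divisible by 3. Models of coding length alone lack the 3′ end and could not hold it. Not all models of the 34 are such. HIST1H4C has 435 bases beside 312 for HIST1H4D, and HIST1H3J has a model of 522 bases beside 1 of 411. The capitals mark the 16 bases of stem, loop and stem, and 5 flanking bases stand on each side (GRCh38). Of the members that hold it, 6 H2A, 9 H2B and 3 H3 genes shared the form shown for HIST1H2AE and HIST1H3H, 3 H2B and 2 H3 genes the form shown for HIST1H2BD, and the 8 H4 genes had 2 forms found in no other class, 5 as in HIST1H4B and 3 as in HIST2H4A.
HIST1H2AE chr6:26217412-26217437 (plus strand): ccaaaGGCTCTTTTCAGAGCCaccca
HIST1H3H chr6:27810511-27810536 (plus strand): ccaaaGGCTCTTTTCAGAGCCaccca
HIST1H2BD chr6:26158582-26158607 (plus strand): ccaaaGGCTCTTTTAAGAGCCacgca
HIST1H4B chr6:26026896-26026921 (minus strand): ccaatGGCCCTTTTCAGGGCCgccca
HIST2H4A chr1:149833027-149833052 (plus strand): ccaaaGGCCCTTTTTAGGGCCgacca

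The 38 deposited columns held 37 distinct libraries, because both Wnt3a 72 h columns were identical and were counted as 1 sample. Every other group had 2 libraries, called biological replicates in the labels. Depth was 2.45 to 65.7 M estimated counts per library, with a median of 18.99 M. Both extremes were Wnt3a 0 h libraries, replicate 1 the shallowest and replicate 2 the deepest. Cytosolic ribosomal RNA took 5.77% to 60.3% of the counts in bcat libraries and 0.419% to 18.8% in the other arms, and bcat 0 h replicate 1, bcat 24 h replicate 1 and bcat 48 h replicate 2 held the most, so results are also given without these 3 and the shallow Wnt3a library. Mitochondrial transcripts took 0.369% to 1.55% of counts in bcat libraries and 6.77% to 16.6% elsewhere. The 0 h cells expressed POU5F1 at 899 to 1237 CPM (counts per 1 M counts after TMM scaling, the unit used throughout), LIN28A at 1612 to 2055 CPM and SOX2 at 131 to 247 CPM, as embryonic stem cells do, while the streak gene T stayed at or below 0.294 CPM and PAX6 at 0. Of the other neural markers followed, SOX1 stayed at or below 0.642 CPM and OTX2 read 32.1 to 41.3 CPM. Among amnion and trophoblast markers TFAP2C read 2.26 to 27.9 CPM, highest in bcat cells. CDX2, GATA3 and HAND1 stayed at or below 0.0147 CPM. Of the stromal markers followed, COL1A1 and THY1 read 27.4 to 56.8 CPM and 107 to 325 CPM in the same libraries. The others, COL3A1 and DCN, stayed at or below 0.654 and 0.588 CPM. CTNNB1, the gene of beta-catenin, was higher in bcat cells at each time by 1.68 to 2.00 (log2) (edgeR adjusted p at most 2.84e-13, n = 2 each), though reads of the construct and of the resident gene cannot be separated. It was lower with CHIR99021 by 0.43 to 0.96.

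Histone transcripts were abundant and unevenly spread. Summed over the 75 members they made up 3606 CPM in the lowest library, Wnt3a 96 h replicate 1, and 19771 CPM in the highest, bcat 72 h replicate 1. The 6 H1 genes carried 13.4% to 22.2% of that sum across libraries, the H2A genes 18.0% to 23.0%, the H2B genes 19.3% to 23.1%, the H3 genes 16.6% to 21.2% and the H4 genes 15.4% to 24.5%. The HIST1 cluster gave 76.8% to 84.4%, HIST2 14.1% to 21.7%, HIST3 0.380% to 0.893% and HIST4H4 0.443% to 1.10%. Per kilobase of the shortest annotated transcript, the highest mean levels belonged to the H4 gene HIST1H4J at 1392 CPM per kb, the linker histone genes HIST1H1B at 963 and HIST1H1C at 857 CPM per kb, and the H3 gene HIST1H3B at 838 CPM per kb. At the other end, 8 members averaged under 1 CPM, among them HIST3H3 and HIST1H2AA, known as testis histones. In 19 members under 50% of the 31-base words occurred in no other gene (HIST1H4J, HIST2H2AA3 and HIST2H4A are among them), so how their reads were divided among near-identical copies is uncertain. HIST2H3A and HIST2H3C have identical transcripts and the same counts in every library. They are 1 measurement that enters the counts of members as 2.

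The summed level followed a different course in each arm. With CHIR99021 it was 10899 and 12541 CPM at 0 h, 9493 and 10263 at 8 h, 10702 and 9795 at 16 h, 10072 and 11048 at 24 h, 18077 and 16513 at 48 h, and 13472 and 10601 CPM at 72 h. In bcat cells it was 8197 and 9177 CPM at 0 h, 9032 and 9207 at 8 h, 11649 and 12997 at 16 h, 9692 and 9839 at 24 h, 16356 and 17794 at 48 h, and 19771 and 17819 CPM at 72 h. With Wnt3a it was 8981 and 13372 CPM at 0 h, 13456 and 12821 at 8 h, 6894 and 7360 at 24 h, 10687 and 10736 at 48 h, 10869 at 72 h, 3606 and 4738 at 96 h, and 6038 and 6608 CPM at 120 h. Both libraries lay above both 0 h libraries of their arm at CHIR99021 48 h and at bcat 16, 24, 48 and 72 h, and below both at CHIR99021 8 and 16 h and at Wnt3a 24, 96 and 120 h. The log2 change of the sum from 0 h was 0.56 at CHIR99021 48 h, 0.98 and 1.11 at bcat 48 and 72 h, and -0.65, -1.42 and -0.82 at Wnt3a 24, 96 and 120 h. Without TMM scaling, on plain totals, bcat 48 h gave 0.56 in place of 0.98, and the sign changed at bcat 24 h (-0.083 in place of 0.17), CHIR99021 16 h (0.0389 in place of -0.19), CHIR99021 24 h (0.0144 in place of -0.15) and Wnt3a 72 h (0.0398 in place of -0.04). Bcat 48 h replicate 2, with 60.2% ribosomal RNA, then read 7842 per 1 M counts beside 15111 in replicate 1. On totals without ribosomal RNA and mitochondrial genes the bcat 48 h libraries read 17923 and 20222, against 9692 and 9867 at 0 h.

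**Figure D1:**
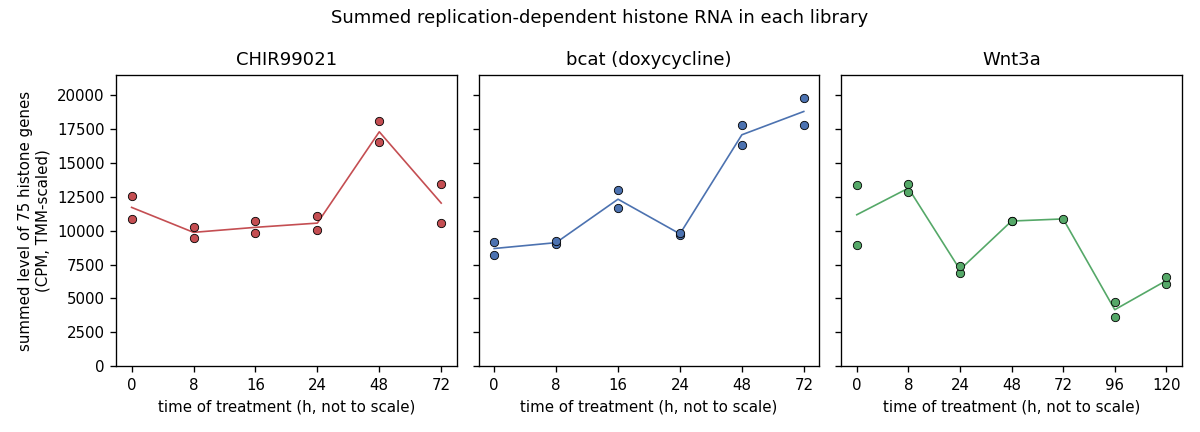
Summed level of the 75 members (CPM, vertical axis) by time after the change of medium (hours, not to scale) in the 3 arms; points are libraries and lines join group means. The CHIR99021 arm has its highest libraries at 48 h (18077 and 16513 CPM), the bcat arm at 48 and 72 h, and the Wnt3a arm its lowest at 96 h (3606 and 4738 CPM).

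Genes were tested in 1 edgeR quasi-likelihood fit over all libraries, with p adjusted by Benjamini-Hochberg over 24304 genes and a call below 0.05. Of the members 73 were tested, HIST1H4G and HIST1H2AA having too few counts. The tests across genes measure the spread between these libraries. In a direction with 0 members called by edgeR, 0 to 7 members had an unadjusted p under 0.05 and DESeq2 called 0 to 7, across the 13 such directions against 0 h and between arms, and 0 to 4 by either measure in those between neighbouring times.

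With CHIR99021 many histone genes were higher at 48 h, and at the other times the calls lay near or below the share of all genes. At 8 h 11 of 73 members were lower and 2 higher, against 11.7% and 9.19% of all genes tested, with a median log2 change of -0.15. At 16 h 8 were lower and 2 higher (9.34% and 6.54% of all genes), and at 24 h 5 were lower and 0 higher (8.61% and 5.90%). These counts lie near the background and rest on single libraries. Without CHIR99021 0 h replicate 2 the calls in both directions came to 5 at 8 h, 3 at 16 h and 1 at 24 h. They came to 5 at 8 h without 8 h replicate 1, to 3 at 16 h without 16 h replicate 2, to 6 at 16 h and 3 at 24 h without 0 h replicate 1, and to 1 at 24 h without either 24 h library.

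Of the 11 members lower at 8 h 3 were linker histone genes, HIST1H1C, HIST1H1D and HIST1H1E, the last not without CHIR99021 0 h replicate 2 (adjusted p = 0.0865) or 8 h replicate 1 (adjusted p = 0.0832). HIST1H1C, a linker histone gene that many non-dividing cells also express, read 301 and 371 CPM at 8 h against 566 and 676 CPM at 0 h, a log2 change of -0.89 ± 0.16 (SE, n = 2 each, edgeR adjusted p = 0.000156). HIST1H1D, which encodes H1.3, read 193 and 257 CPM against 422 and 497 CPM, -1.03 ± 0.19 (n = 2 each, edgeR adjusted p = 0.000186). Neither gene's groups overlapped. The summed H1 level changed by -0.63 (log2) at 8 h and those of the core histone classes by -0.10 to -0.25. HIST1H1A, the gene of H1.1, went the other way, with 12.3 and 10.7 CPM at 8 h against 5.33 and 5.98 CPM at 0 h (1.02 ± 0.25, edgeR adjusted p = 0.00280, n = 2 each). The other member called higher at 8 h was the H2A gene HIST1H2AK. HIST1H2BN, the H2B gene that shares 393 bases with HIST1H2AK on the opposite strand, read 62.1 and 66.0 CPM against 101 and 109 CPM (-0.72 ± 0.14, edgeR adjusted p = 0.000203, n = 2 each).

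At CHIR99021 48 h 41 of 73 members were called higher and 2 lower, against 15.7% and 18.1% of all genes tested. The median log2 change of the members was 0.52, and that of all genes 0.02. All 5 classes took part, with 12 of 16 H2A, 13 of 22 H2B, 7 of 15 H3, 6 of 14 H4 and 3 of 6 H1 genes higher. HIST1H2AG, an H2A gene, read 399 and 352 CPM at 48 h against 165 and 201 CPM at 0 h (1.04 ± 0.15, n = 2 each, edgeR adjusted p = 3.35e-06). HIST1H4D, an H4 gene, read 405 and 374 CPM against 172 and 211 CPM (1.03 ± 0.17, n = 2 each, edgeR adjusted p = 1.56e-05). In each of the pair both treated libraries lay well above both 0 h libraries. HIST1H3B, the H3 gene with the highest level per length, read 643 and 608 CPM against 318 and 372 CPM (0.86 ± 0.14, n = 2 each, edgeR adjusted p = 7.39e-06). HIST1H1B, which encodes H1.5, moved less, with 929 and 883 CPM against 639 and 701 CPM (0.44 ± 0.15, n = 2 each, edgeR adjusted p = 0.0284). That call was lost whichever of the 4 libraries was left out (adjusted p 0.0578 to 0.175). The 2 called lower were HIST1H1A and HIST2H4B, an H4 copy that shares its reads with HIST2H4A and was not called without CHIR99021 0 h replicate 1 or 2 or 48 h replicate 2 (adjusted p = 0.0673, 0.191 and 0.243). The count of 43 became 29 to 39 when 1 library was left out.

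The rise and the return both appeared between neighbouring times. From 8 to 16 h 2 members rose and 0 fell (5.83% and 5.52% of all genes), and from 16 to 24 h 0 rose and 1 fell (3.90% and 4.19%). From 24 to 48 h 55 members rose and 2 fell (12.7% and 12.9% of all genes), and from 48 to 72 h 34 fell and 0 rose (5.49% and 7.51%), though that count was 7 without CHIR99021 72 h replicate 2 and 19 without CHIR99021 48 h replicate 1. At 72 h against 0 h 3 members were lower and 0 higher (13.4% and 11.5% of all genes), with a median of 0.01. The 72 h replicates differed, and without replicate 2 the same comparison gave 10 higher and 1 lower, without replicate 1, 1 higher and 5 lower. HIST1H3H, an H3 gene, read 222 and 171 CPM at 72 h against 193 and 198 CPM at 0 h, 1 library above and 1 below (0.01, edgeR adjusted p = 0.991, n = 2 each). DESeq2 called 11 members at 72 h.

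HIST4H4, the H4 gene that lies alone on chromosome 12 and is also known to give polyadenylated mRNA, was lower with CHIR99021 at 8, 16, 24 and 72 h. It read 60.2 and 67.2 CPM at 8 h against 95.0 and 117 CPM at 0 h (-0.74 ± 0.18, n = 2 each, edgeR adjusted p = 0.00284), a call lost without CHIR99021 0 h replicate 2 (adjusted p = 0.0716) or 8 h replicate 1 (adjusted p = 0.0570). It was lower by similar amounts at 16 and 24 h (-0.94 and -0.92), was not called at 48 h (-0.20, edgeR adjusted p = 0.439, n = 2 each), and at 72 h read 72.6 and 46.9 CPM (-0.82 ± 0.18, edgeR adjusted p = 0.000809, n = 2 each). At 8, 16, 24 and 72 h both of its treated libraries lay below both 0 h libraries. The course was not particular to HIST4H4. HIST1H2BH, an H2B gene, was also called lower at 16 and 72 h, calls lost without CHIR99021 0 h replicate 2.

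In bcat cells histone mRNAs were higher at 16 h, close to 0 h at 24 h, and highest at 48 and 72 h. At 8 h 10 members were called higher and 2 lower (10.7% and 8.01% of all genes), a count of 12 that became 7 without any 1 of the 4 libraries. At 16 h 36 were higher and 0 lower (6.23% and 4.69% of all genes), with a median log2 change of 0.53. The 16 h count fell to 12 without bcat 0 h replicate 1, 22 without bcat 0 h replicate 2 and 14 without bcat 16 h replicate 2, and to 15 without the 4 libraries named above. At 24 h 4 were higher and 0 lower (6.87% and 5.96% of all genes), and 1 was left without bcat 0 h replicate 1 or 24 h replicate 1 and 2 without 24 h replicate 2.

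At bcat 48 h 56 of 73 members were called higher and 2 lower, against 11.2% and 10.1% of all genes, and at 72 h 59 higher and 2 lower, against 13.6% in each direction. The members' median log2 changes were 1.00 and 1.11, those of all genes 0.03 and 0.06. At 72 h the higher members were 15 of 16 H2A, 17 of 22 H2B, 12 of 15 H3, 11 of 14 H4 and 4 of 6 H1 genes. Leaving out 1 library gave 54 to 56 and 55 to 60 calls at these times.

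**Figure D2:**
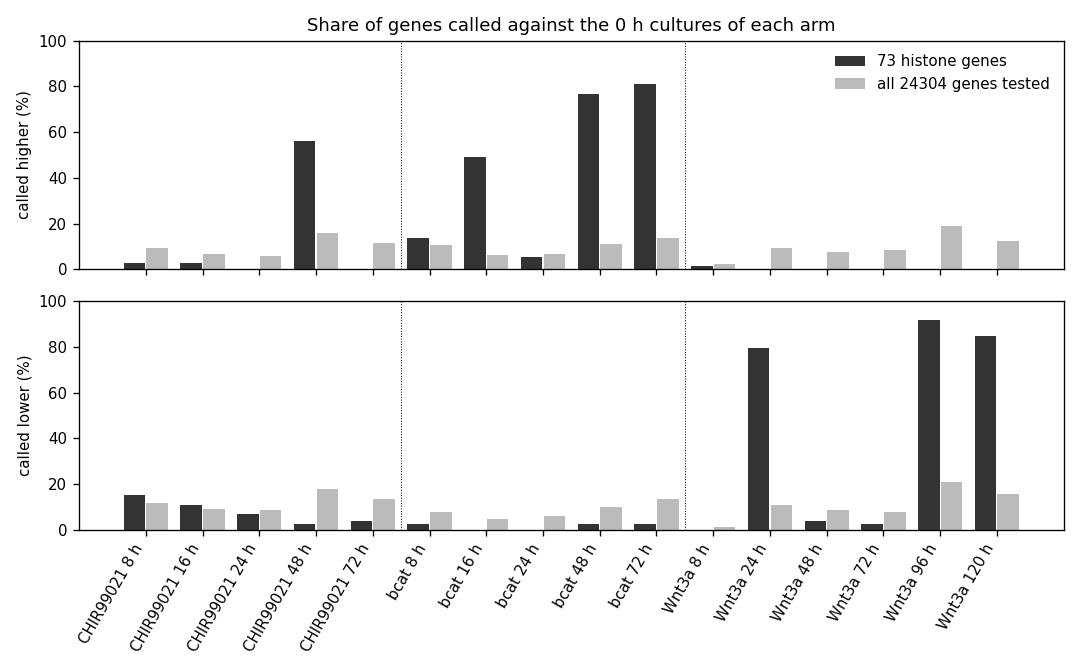
Share of genes called higher (upper panel) and lower (lower panel) against 0 h, in percent, for the 73 members tested (dark bars) beside all 24304 genes (light bars), by arm and time. Members exceed all genes most in the upper panel at CHIR99021 48 h (41 of 73) and bcat 16, 48 and 72 h, and in the lower panel at Wnt3a 24, 96 and 120 h.

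Core histone genes of every class carried the increase in bcat cells. HIST1H2AL, an H2A gene, read 128 and 126 CPM at 72 h against 35.9 and 43.3 CPM at 0 h (1.66 ± 0.18, n = 2 each, edgeR adjusted p = 1.05e-08). HIST1H3H read 482 and 445 CPM against 135 and 163 CPM (1.63 ± 0.15, n = 2 each, edgeR adjusted p = 8.42e-10). HIST1H2BJ, an H2B gene, read 380 and 330 CPM against 124 and 135 CPM (1.45 ± 0.15, n = 2 each, edgeR adjusted p = 6.23e-09). For these 3 genes the treated libraries lay far above the 0 h ones, with no overlap. HIST1H4J read 1075 and 1023 CPM against 472 and 501 CPM (1.11 ± 0.16, n = 2 each, edgeR adjusted p = 3.99e-06), and the linker gene HIST1H1B 1177 and 1142 CPM against 481 and 516 CPM (1.22 ± 0.16, n = 2 each, edgeR adjusted p = 5.53e-07). HIST2H2AA3, whose copy HIST2H2AA4 leaves it no 31-base word of its own, read 675 and 677 CPM against 154 and 271 CPM (1.65 ± 0.20, n = 2 each, edgeR adjusted p = 8.42e-07). HIST1H1E and HIST1H2BD, at 0.58 and 0.63 (log2), moved less, and HIST1H2BN at 0.28 was not called (edgeR adjusted p = 0.141). HIST2H2BB, which GENCODE lists as a pseudogene, is among the higher members with 1.04 CPM in 72 h replicate 1 and no counts in the other, against none at 0 h, which bounds it at least 2.59-fold higher with 3 counts over the group as the floor. It was not called without either bcat 0 h library (adjusted p = 0.0912 and 0.344) or without 72 h replicate 1, the one with counts. The 2 members called lower were H1 genes, HIST1H1A and the testis gene HIST1H1T, the second call lost whichever of the 4 libraries was left out (adjusted p 0.0682 to 0.198).

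The HIST3 genes on chromosome 1 had the largest relative increase of the 4 clusters, the summed level of the 4 genes changing by 1.59 at 48 h and 1.66 at 72 h (log2), beside 0.95 and 1.09 for HIST1. HIST3H2BB, an H2B gene at chr1:228458107-228460470, read 62.0 and 61.4 CPM at bcat 48 h against 21.5 and 19.04 CPM at 0 h (1.63 ± 0.15, n = 2 each, edgeR adjusted p = 9.13e-10). HIST3H2BA, which GENCODE lists as a pseudogene, read 32.9 and 25.5 CPM at 72 h against 4.41 and 7.28 CPM (2.23 ± 0.31, n = 2 each, edgeR adjusted p = 2.05e-06), and HIST3H2A 34.2 and 35.1 CPM against 10.6 and 14.6 CPM (1.41 ± 0.21, n = 2 each, edgeR adjusted p = 3.54e-06). The fourth, HIST3H3, averaged 0.239 CPM over all libraries. The HIST3 sum also began lowest in bcat cells, differing by -1.10 (log2) from CHIR99021 0 h. Those of HIST1, HIST2 and HIST4 differed by -0.39, -0.65 and -0.20. The clusters were not tested against each other.

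Between neighbouring bcat times, 20 members rose and 1 fell from 8 to 16 h (3.62% and 4.24% of all genes), a total of 5 without bcat 8 h replicate 1, 7 without 16 h replicate 2, 11 without 8 h replicate 2 and 12 without 16 h replicate 1. From 16 to 24 h 0 rose and 1 fell (0.580% and 0.802%). From 24 to 48 h 57 rose and 4 fell (4.64% and 4.36%). From 48 to 72 h 1 member rose and 1 fell (2.72% and 3.46%). In the CHIR99021 arm 34 members fell over that step (5.49% of all genes), a count that depended on single libraries, as given above.

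**Figure D3:**
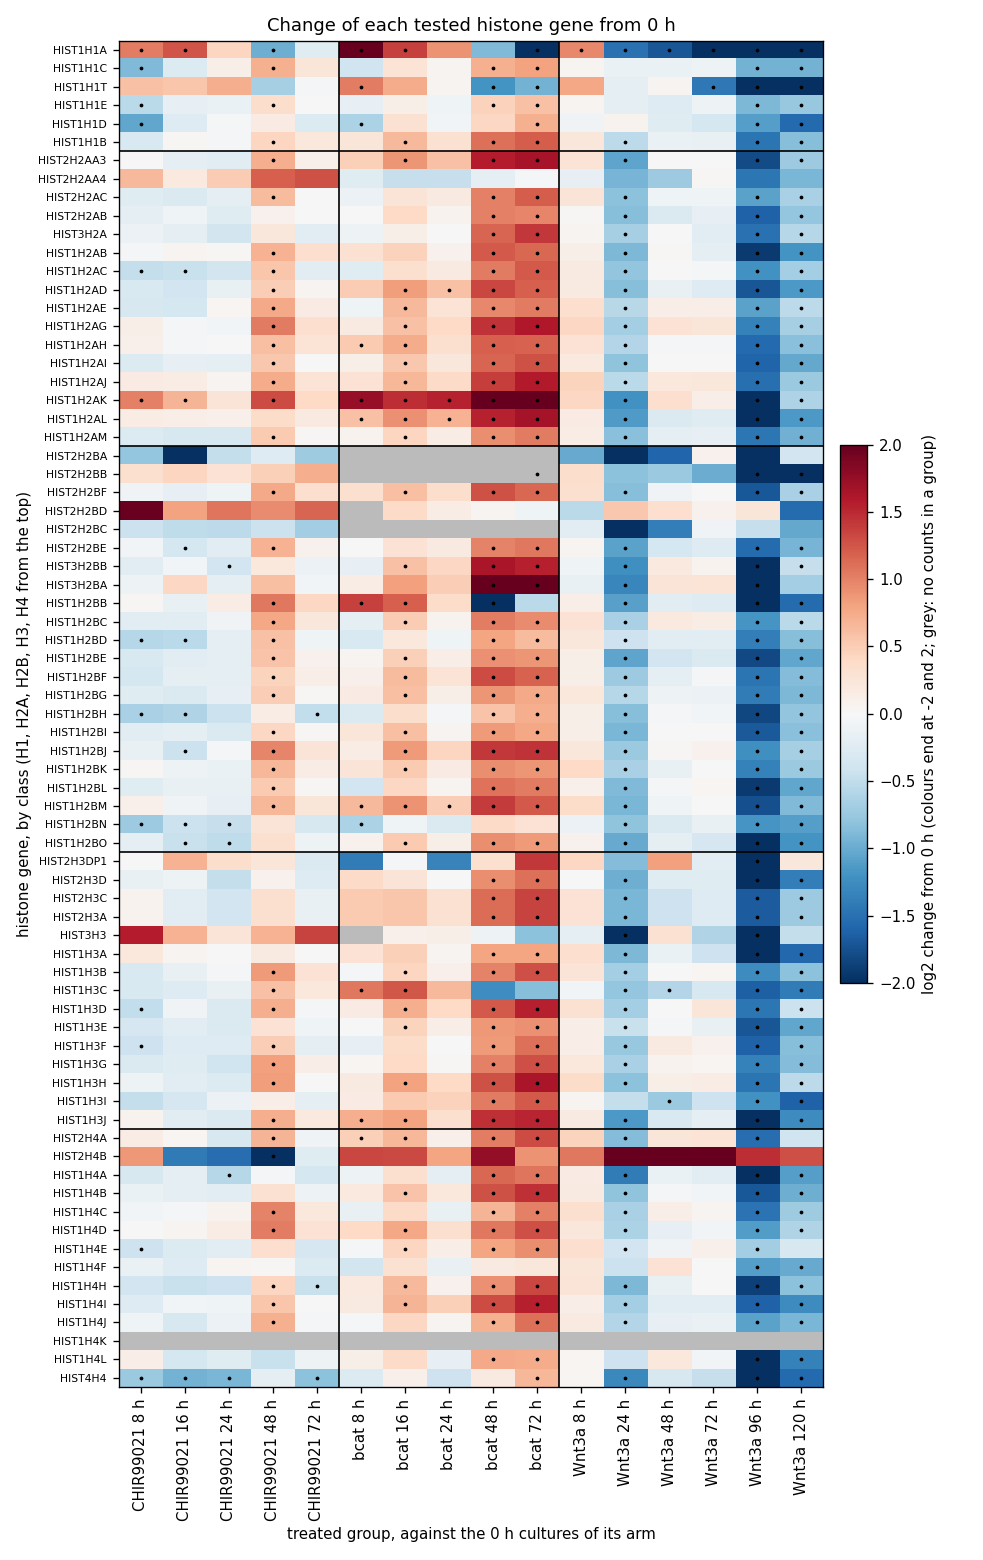
Log2 change from 0 h of each of the 73 members (rows, by class) in every treated group (columns), blue for lower and red for higher, with colours ending at 2 in either direction, a dot where the change was called, and grey where a group had no counts. Columns of red at CHIR99021 48 h and bcat 48 and 72 h and of blue at Wnt3a 24, 96 and 120 h run through all 5 classes, with HIST1H1A apart.

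The change with CHIR99021 and the change in bcat cells were set against each other by an interaction term, which asks whether the 2 ways of activating the pathway moved histone mRNA by different amounts. At 72 h the change was smaller with CHIR99021 for 54 of 73 members and larger for 1, against 4.0% and 3.21% of all genes, with a median difference of -1.05 (log2). At 48 h it was smaller for 23 and larger for 2 (10.6% and 5.95% of all genes), with a median of -0.45. At 16 h it was smaller for 21 and larger for 0 (1.93% and 0.843%), at 8 h for 3 and 0 (2.08% and 0.617%) and at 24 h for 2 and 0 (3.30% and 1.65%). The 72 h count stayed within 41 to 56 when 1 library was left out and was 48 without the 4 libraries. The 16 h count fell to 2 without CHIR99021 0 h replicate 2 or 16 h replicate 2, to 3 without bcat 0 h replicate 1, to 7 and 10 without bcat 16 h replicates 2 and 1 and to 13 without CHIR99021 0 h replicate 1. The 48 h count fell to 7 and 9 without CHIR99021 0 h or 48 h replicate 2, to 10 without bcat 48 h replicate 2 and to 13 and 12 without bcat 0 h replicates 1 and 2. The bcat line also began lower at 0 h, and the activator, the line and the culture batch cannot be told apart in these differences.

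At 72 h the difference was 15 of 16 H2A, 16 of 22 H2B, 11 of 15 H3, 10 of 14 H4 and 2 of 6 H1 genes. HIST1H3H, with the values given above for both arms, had a difference of -1.62 ± 0.21 (log2, n = 2 in each of 4 groups, edgeR adjusted p = 6.11e-06). HIST1H4H, an H4 gene, read 82.3 and 66.1 CPM at CHIR99021 72 h against 90.4 and 111 CPM at its 0 h, and 342 and 283 CPM at bcat 72 h against 109 and 138 CPM at its 0 h. It was thus called lower in the first arm (-0.44 ± 0.16, edgeR adjusted p = 0.0481, n = 2 each) and higher in the second (1.33 ± 0.17, edgeR adjusted p = 3.76e-07, n = 2 each), and the difference was -1.77 ± 0.23 (edgeR adjusted p = 9.79e-06). The first of these calls was lost without CHIR99021 0 h replicate 2 (adjusted p = 0.389) or 72 h replicate 2 (adjusted p = 0.350). HIST1H1C changed by 0.71 in both arms at 48 h, and its 72 h difference of -0.55 was not called (edgeR adjusted p = 0.154).

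With recombinant Wnt3a no member was called lower at 8 h, and at 24, 96 and 120 h most were. At 8 h 1 member was higher and 0 lower (2.28% and 1.18% of all genes). It was HIST1H1A, with 17.0 and 16.0 CPM at 8 h against 5.82 and 9.76 CPM at 0 h (0.96 ± 0.25, n = 2 each, edgeR adjusted p = 0.0257). Without Wnt3a 0 h replicate 2 the count was 18, all higher, and without any 1 of the other 3 libraries it was 0. At 24 h 58 of 73 members were lower and 0 higher (10.9% and 9.32% of all genes), with a median of -0.81, and 16 were lower without Wnt3a 0 h replicate 2, which leaves the shallow library as the sole 0 h sample. Without the 4 libraries, which leaves the deep one, the summed level changed by -0.91.

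At 48 h 3 members were lower and 0 higher (8.57% and 7.57% of all genes), and at 72 h, with 1 library assumed to vary like the other groups, 2 and 0 (7.94% and 8.43%). The 48 h count turned with the 0 h libraries, to 15 lower without Wnt3a 0 h replicate 1 and to 6 higher without replicate 2, and it was 1 without 48 h replicate 1. The 72 h count was 6 lower without 0 h replicate 1, and 4 higher and 1 lower without replicate 2. No direction can be read at these times. At 96 h 67 of 73 members were lower and 0 higher (21.0% and 18.8% of all genes), with a median of -1.60, and at 120 h 62 and 0 (15.6% and 12.2%), with a median of -0.86. Leaving out 1 library gave 62 to 67 calls at 96 h, and 34 to 65 at 120 h, the 34 without Wnt3a 0 h replicate 2.

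At Wnt3a 96 h the lower members were all 15 H3 genes tested, 15 of 16 H2A, 19 of 22 H2B, 12 of 14 H4 and all 6 H1 genes. HIST1H3B read 118 and 141 CPM at 96 h against 250 and 361 CPM at 0 h (-1.25 ± 0.14, n = 2 each, edgeR adjusted p = 1.90e-08). HIST1H1B read 170 and 280 CPM against 499 and 732 CPM (-1.46 ± 0.16, n = 2 each, edgeR adjusted p = 1.70e-08). HIST3H2BB read 9.24 and 9.03 CPM against 31.05 and 40.9 CPM (-2.02 ± 0.15, n = 2 each, edgeR adjusted p = 4.12e-12). All treated libraries of these genes lay below both 0 h libraries. HIST4H4 read 19.6 and 22.5 CPM against 86.7 and 140 CPM (-2.46 ± 0.19, n = 2 each, edgeR adjusted p = 4.74e-11).

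Fewer linker genes were called at Wnt3a 24 h. Of 6 H1 genes 2 were lower, beside 15 of 16 H2A, 18 of 22 H2B, 13 of 15 H3 and 10 of 14 H4 genes, and the summed H1 level changed by -0.24 (log2), those of the core classes by -0.68 to -0.77. HIST1H1C, for example, read 373 and 399 CPM at 24 h against 329 and 508 CPM at 0 h, both treated libraries between the 0 h ones (-0.13, edgeR adjusted p = 0.646, n = 2 each). The difference between classes was not tested.

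A few members are described apart for their level or course. HIST1H1A, at chr6:26017085-26017732 on the minus strand, was called higher at 8 and 16 h and lower at 48 h with CHIR99021, higher at 8 and 16 h and lower at 72 h in bcat cells, and lower from 24 h on with Wnt3a. With CHIR99021 it read 14.2 and 12.96 CPM at 16 h (1.26 ± 0.25, edgeR adjusted p = 0.000510) and 3.57 and 2.07 CPM at 48 h (-0.98 ± 0.26, edgeR adjusted p = 0.00389), against 5.33 and 5.98 CPM at 0 h (n = 2 each). The 48 h call was lost without CHIR99021 48 h replicate 2 (-0.66, adjusted p = 0.111). In bcat cells it read 7.55 and 10.7 CPM at 8 h (2.59 ± 0.35, edgeR adjusted p = 2.87e-06) and 0.0743 and 0.211 CPM at 72 h (-3.45 ± 0.66, edgeR adjusted p = 0.000143), against 1.47 and 1.498 CPM at 0 h (n = 2 each). The bcat 72 h values rest on only 1 and 2 counts and the bcat 0 h values on 5 and 14, so the size of that decrease is uncertain. With Wnt3a HIST1H1A read 0.145 and 0.189 CPM at 96 h, from 3 and 4 counts, against 5.82 and 9.76 CPM at 0 h (-5.61 ± 0.40, edgeR adjusted p = 2.70e-12, n = 2 each). That was the largest log2 decrease fitted among the 73 members there. Of the 16 comparisons with 0 h it was called in 12, 5 higher and 7 lower.

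HIST1H3C and HIST1H2BB are an H3 and an H2B gene that lie head to head on chromosome 6 with 1754 bases between their starts. Both were lower in the bcat line than with CHIR99021 at every time and did not share the late increase of that line. HIST1H2BB was called higher there at 8 and 16 h than at 0 h. Both calls were lost without bcat 0 h replicate 2 (log2 change then 0.87 and 0.70). HIST1H3C (chr6:26045411-26045821, plus strand) read 1.47 and 1.39 CPM in bcat cells at 0 h and 0.891 and 0.633 CPM at 72 h, where CHIR99021 cells read 74.8 and 80.4 CPM at 0 h. The bcat 0 h level was lower than the CHIR99021 0 h level (log2 difference -5.77 ± 0.25) and than the Wnt3a 0 h level of 13.3 and 16.8 CPM (-3.47 ± 0.28, n = 2 each, edgeR adjusted p = 4.81e-16 and 1.81e-10). The Wnt3a 0 h cells were themselves lower than the CHIR99021 0 h cells (-2.30 ± 0.16, n = 2 each, edgeR adjusted p = 1.03e-10), so the 3 sets of 0 h cultures did not overlap. Of its 31-base words 92.4% occur in no other gene.

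HIST1H2BB (chr6:26043277-26043657, minus strand) had the same order. It read 4.71 and 2.67 CPM in bcat cells at 0 h, 6.14 and 8.16 CPM in the Wnt3a 0 h cells and 29.2 and 33.8 CPM in the CHIR99021 0 h cells. The bcat level was lower than that of CHIR99021 0 h (log2 difference -3.24 ± 0.25, n = 2 each, edgeR adjusted p = 8.71e-11), while its difference from Wnt3a 0 h had an adjusted p of 0.206 without bcat 0 h replicate 2 and of 0.162 without Wnt3a 0 h replicate 2 and was then not called. At 48 h it read 0.741 and 0.784 CPM in bcat cells (-2.13 ± 0.38 from 0 h, n = 2 each, edgeR adjusted p = 7.67e-05) and 69.2 and 61.5 CPM with CHIR99021 (1.05 ± 0.17, n = 2 each, edgeR adjusted p = 1.23e-05), and the changes differed by 3.18 ± 0.41 (edgeR adjusted p = 1.40e-06). Those of HIST1H3C differed by 1.82 ± 0.48 (edgeR adjusted p = 0.00801), a call lost without bcat 0 h replicate 2 (adjusted p = 0.131) or bcat 48 h replicate 1 (adjusted p = 0.0759). These 2 genes were the only members whose 48 h change was called larger with CHIR99021.

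**Figure D4:**
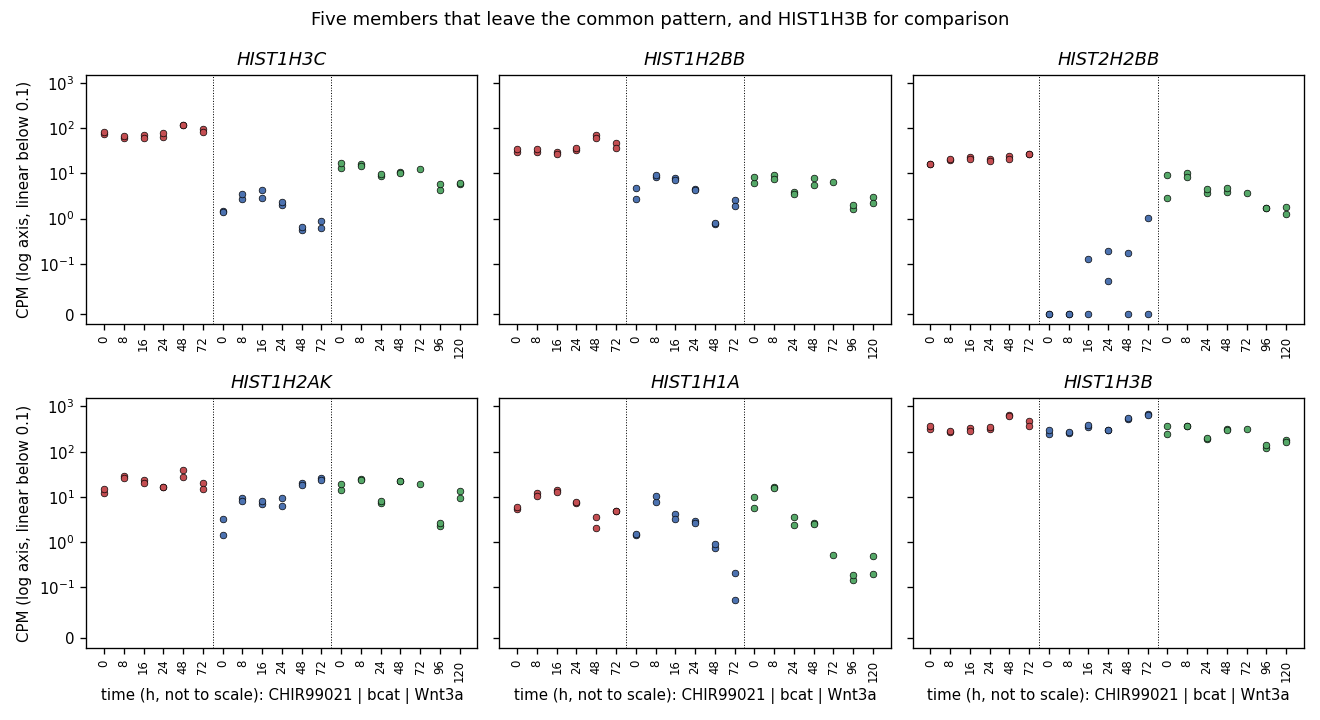
Level in each library (CPM, log axis that is linear below 0.1) by time (hours, not to scale) of HIST1H3C, HIST1H2BB, HIST2H2BB, HIST1H2AK and HIST1H1A, and of HIST1H3B for comparison, with CHIR99021, bcat and Wnt3a libraries from left to right in each panel. HIST1H3C and HIST1H2BB lie far lower in the bcat line than with CHIR99021 at every time, HIST1H1A is lowest late in the bcat and Wnt3a arms, and HIST1H2AK begins at 1.47 and 3.21 CPM in bcat cells and reaches 25.9 and 23.3 CPM at 72 h.

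HIST1H2AK (chr6:27837947-27838339, minus strand) also began low in the bcat line but increased there. It read 25.9 and 23.3 CPM at bcat 72 h against 1.47 and 3.21 CPM at 0 h (3.20 ± 0.29, n = 2 each, edgeR adjusted p = 3.13e-10), the largest increase there among members with counts in every library. With CHIR99021 it read 39.6 and 28.1 CPM at 48 h against 12.3 and 15.02 CPM at 0 h (1.31 ± 0.20, n = 2 each, edgeR adjusted p = 3.61e-06), and with Wnt3a 2.27 and 2.60 CPM at 96 h against 14.2 and 19.8 CPM (-2.87 ± 0.24, n = 2 each, edgeR adjusted p = 8.47e-11). The treated and 0 h libraries overlapped in none of these. Because it lies across HIST1H2BN on the other strand, and the strand setting of the counting is not given in the sources used here, reads of the 2 genes may not be told apart; HIST1H2BN was lower at CHIR99021 8 h while HIST1H2AK was higher (28.4 and 26.4 CPM, 1.00 ± 0.20, n = 2 each, edgeR adjusted p = 0.000340).

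The promoters of these genes are shown because neighbours and class mates moved differently. Each line gives the 250 bases before the RefSeq start (GRCh38.p14), 5′ to 3′ on the gene's strand. Capitals mark CCAAT, the box bound by NF-Y, TATAAA, the TATA box, and ATTTGCAT, the octamer bound by POU2F1, on either strand, so TTTATA and ATTGG are TATAAA and CCAAT read on the other strand. HIST1H3B is added as an H3 gene that rose in both arms, and HIST1H4D as an H4 gene.
HIST1H3C chr6:26045134-26045383 (plus strand): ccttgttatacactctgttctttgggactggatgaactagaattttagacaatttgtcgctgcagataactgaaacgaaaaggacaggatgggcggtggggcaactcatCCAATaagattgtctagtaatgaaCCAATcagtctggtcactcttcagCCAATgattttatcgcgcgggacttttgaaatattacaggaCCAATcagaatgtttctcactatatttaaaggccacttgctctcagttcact
HIST1H2BB chr6:26043714-26043963 (minus strand): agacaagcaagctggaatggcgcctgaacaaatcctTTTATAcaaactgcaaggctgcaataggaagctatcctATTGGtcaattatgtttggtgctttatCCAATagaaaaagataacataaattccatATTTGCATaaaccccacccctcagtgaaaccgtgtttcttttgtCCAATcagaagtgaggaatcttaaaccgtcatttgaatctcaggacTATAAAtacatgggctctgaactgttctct
HIST1H2AK chr6:27838376-27838625 (minus strand): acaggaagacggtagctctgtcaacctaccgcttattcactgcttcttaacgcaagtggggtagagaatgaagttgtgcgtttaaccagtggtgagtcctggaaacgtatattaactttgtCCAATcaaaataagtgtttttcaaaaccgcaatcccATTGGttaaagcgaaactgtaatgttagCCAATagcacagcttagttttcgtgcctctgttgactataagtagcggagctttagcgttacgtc
HIST1H3B chr6:26032100-26032349 (minus strand): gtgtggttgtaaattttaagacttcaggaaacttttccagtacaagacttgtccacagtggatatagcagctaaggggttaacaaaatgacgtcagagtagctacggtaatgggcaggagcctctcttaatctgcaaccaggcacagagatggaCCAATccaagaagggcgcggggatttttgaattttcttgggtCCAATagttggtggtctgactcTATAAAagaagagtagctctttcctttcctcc
HIST1H4D chr6:26189113-26189362 (minus strand): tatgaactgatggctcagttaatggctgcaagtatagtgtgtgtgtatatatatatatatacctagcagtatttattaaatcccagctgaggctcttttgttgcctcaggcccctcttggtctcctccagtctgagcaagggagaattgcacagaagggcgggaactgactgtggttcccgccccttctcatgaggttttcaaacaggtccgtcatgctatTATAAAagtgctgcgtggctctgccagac

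Over the 68 RefSeq promoters matched to 64 members, CCAAT occurred on either strand in 85.3%, beside 32.0% of 35116 promoters of the same length. It was in every H1, H2A, H2B and H3 promoter searched and in 3 of 13 H4 promoters. TATAAA was in 66.2% of member promoters (10.7% of all) and ATTTGCAT in 38.2% (1.63% of all), this octamer in 11 of 16 H2A and 14 of 19 H2B promoters and in 1 of 14 H3 promoters. HIST1H3C held CCAAT 4 times and no TATAAA, and HIST1H2BB all of the 3 motifs. The E2F letters TTTGGCGC were in 0 of the 68 and in 0.550% of all. A match is a description of the letters.

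The 0 h cultures differed before any treatment. In bcat 0 h cells 32 members were lower and 2 higher than in CHIR99021 0 h cells (9.60% and 6.06% of all genes), with a median of -0.45 (log2), and 34 were lower and 1 higher than in Wnt3a 0 h cells (12% each). The second count fell to 18, 5 of them higher, without Wnt3a 0 h replicate 2. Wnt3a 0 h cells had 5 members lower and 2 higher than CHIR99021 0 h cells (6.76% and 4.12%), which became 3 lower and 8 higher without Wnt3a 0 h replicate 1, 13 lower without its replicate 2, and 4 lower without CHIR99021 0 h replicate 1. HIST2H2BB had no counts in either bcat 0 h library, against 15.9 and 16.3 CPM in CHIR99021 0 h cells. With 3 counts over the group as the floor it was at least 68.6-fold lower there, and 37.2-fold lower than in Wnt3a 0 h cells, but only 5.05% of its 31-base words occur in no other gene. HIST1H4E, an H4 gene, was higher in bcat 0 h cells, with 233 and 256 CPM against 146 and 165 CPM in CHIR99021 0 h cells (0.65 ± 0.14, n = 2 each, edgeR adjusted p = 0.00116). The other member higher there was HIST2H2AA4, a copy of HIST2H2AA3 with 2.81% of its 31-base words in no other gene, a call lost without bcat 0 h replicate 1 (adjusted p = 0.167) or CHIR99021 0 h replicate 2 (adjusted p = 0.0641).

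**Figure D5:**
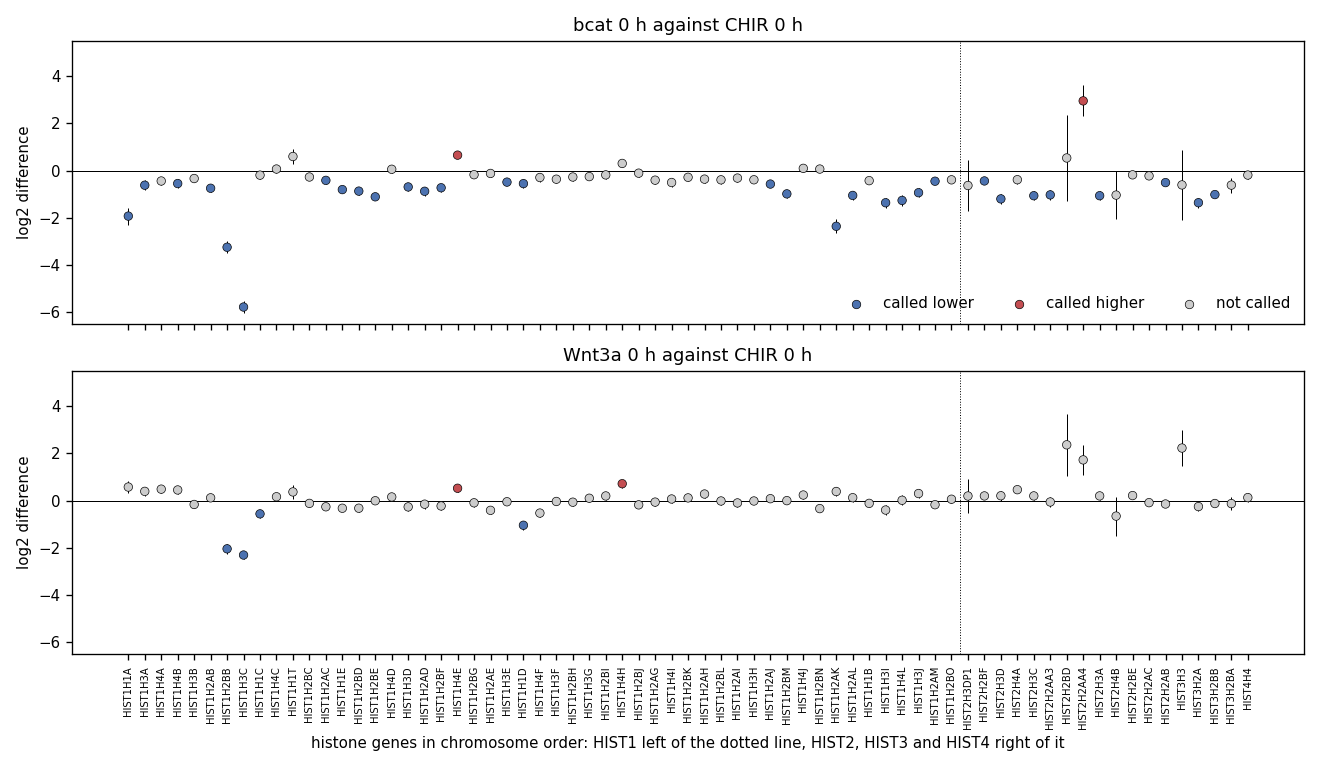
Log2 difference between 0 h cultures for 69 members with counts there, in chromosome order, as points with bars of 1 standard error: bcat against CHIR99021 above and Wnt3a against CHIR99021 below, blue where called lower, red where called higher. Most points of the upper panel lie below 0, with HIST1H3C lowest at -5.77 and its neighbour HIST1H2BB at -3.24.

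Of the 5 members lower in Wnt3a than in CHIR99021 0 h cells 2 were linker genes, the others being HIST1H3C, HIST1H2BB and HIST2H2BB. HIST1H1D read 183 and 258 CPM in Wnt3a 0 h cells against 422 and 497 CPM in CHIR99021 0 h cells (-1.04 ± 0.19, n = 2 each, edgeR adjusted p = 0.000531), and HIST1H1C 329 and 508 CPM against 566 and 676 CPM (-0.56 ± 0.16, n = 2 each, edgeR adjusted p = 0.0221). The summed H1 level differed by -0.44 (log2) and the summed H4 level by 0.26. Leaving out CHIR99021 0 h replicate 2 ended the HIST1H1C call (adjusted p = 0.237), as did leaving out replicate 1 of Wnt3a 0 h (adjusted p = 0.400). The H4 genes HIST1H4H and HIST1H4E were the 2 members higher, and neither was called once CHIR99021 0 h replicate 1 (adjusted p = 0.0944 and 0.152) or replicate 2 of Wnt3a 0 h (adjusted p = 0.213 and 0.523) was left out. HIST2H2BB was not called without either CHIR99021 0 h library (adjusted p = 0.0871 and 0.106) or without replicate 1 of Wnt3a 0 h (adjusted p = 0.145).

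Some replication-dependent genes are known to give polyadenylated transcripts too, and 8 such members were followed (HIST1H1C, HIST1H2AC, HIST1H2BC, HIST1H2BD, HIST1H2BJ, HIST1H2BK, HIST2H2BE and HIST4H4). At CHIR99021 48 h 7 of these 8 and 34 of the other 65 were higher, at bcat 72 h 8 of 8 and 51 of 65, and at Wnt3a 96 h 8 of 8 and 59 of 65 were lower. The shares of all genes were 15.7%, 13.6% and 21.0%, in the same order. HIST2H2BE, an H2B gene, read 233 and 217 CPM at bcat 72 h against 99.1 and 115 CPM (1.06 ± 0.13, n = 2 each, edgeR adjusted p = 1.40e-07). HIST1H2AC read 57.6 and 70.5 CPM at Wnt3a 96 h against 123 and 168 CPM (-1.21 ± 0.14, n = 2 each, edgeR adjusted p = 3.85e-08). At CHIR99021 16 h 5 of the 8 and 3 of the 65 were lower (9.34% of all genes), calls that rested on single libraries, as given above. HIST1H2BD, for example, was not called without CHIR99021 0 h replicate 2 or 16 h replicate 2 (log2 change then -0.43 and -0.39). The 2 sets were not tested against each other.

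The genes that make and process histone mRNA (25 tested) changed with the members in part. At bcat 48 h 12 were higher and 1 lower, at bcat 72 h 10 and 1, at CHIR99021 48 h 7 and 6, and at Wnt3a 96 h 3 and 10. The shares of all genes were 11.2% and 10.1%, 13.6% in each direction, 15.7% and 18.1%, and 18.8% and 21.0%, in the same order. E2F1, an S phase transcription factor, read 56.1 and 55.05 CPM at bcat 72 h against 13.2 and 18.0 CPM at 0 h (1.78 ± 0.17, n = 2 each, edgeR adjusted p = 8.36e-10). CASP8AP2 (FLASH), a histone processing factor, read 86.3 and 64.3 CPM against 36.5 and 34.3 CPM (1.10 ± 0.17, n = 2 each, edgeR adjusted p = 8.70e-06). SLBP was highest in bcat cells at 8 h, with 63.5 and 67.4 CPM at bcat 8 h against 36.2 and 33.1 CPM (0.93 ± 0.12, n = 2 each, edgeR adjusted p = 1.81e-06), where 10 members were higher. LSM11, a subunit of the U7 particle that cuts histone pre-mRNA, was higher both where histone mRNAs were higher and where they were lower: 41.6 and 39.4 CPM at CHIR99021 48 h against 17.6 and 18.0 CPM (1.19 ± 0.16, n = 2 each, edgeR adjusted p = 3.46e-07), and 20.3 and 18.2 CPM at Wnt3a 96 h against 6.79 and 8.92 CPM (1.20 ± 0.18, n = 2 each, edgeR adjusted p = 2.21e-06). CDC25A, the phosphatase that activates CDK2, read 19.7 and 31.5 CPM at Wnt3a 96 h against 77.3 and 100.6 CPM (-1.82 ± 0.14, n = 2 each, edgeR adjusted p = 3.03e-11).

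S phase genes (25 tested) changed in the direction of the histone genes at some times and not at others. At bcat 48 and 72 h 21 and 20 were higher and 0 lower (11.2% and 13.6% of all genes higher, 10.1% and 13.6% lower). At Wnt3a 24, 96 and 120 h 19, 21 and 12 were lower and 0, 1 and 1 higher. Of all genes 10.9%, 21.0% and 15.6% were lower there and 9.32%, 18.8% and 12.2% higher. At CHIR99021 8 h 9 were higher and 2 lower (9.19% and 11.7% of all genes), while 2 histone genes were higher and 11 lower. At CHIR99021 48 h, where 41 of 73 histone genes were higher, 5 S phase genes were higher and 4 lower. Those counts lie near the shares of all genes, 15.7% and 18.1%. At bcat 8 h, where 10 of 73 histone genes were higher, 15 S phase genes were higher and 0 lower (10.7% and 8.01% of all genes). MCM2, a subunit of the replicative helicase, read 282 and 239 CPM at bcat 72 h against 117 and 131 CPM (1.06 ± 0.13, n = 2 each, edgeR adjusted p = 1.22e-07). RRM2, a subunit of ribonucleotide reductase, read 33.7 and 53.3 CPM at Wnt3a 96 h against 140 and 166 CPM (-1.83 ± 0.16, n = 2 each, edgeR adjusted p = 1.70e-10). PCNA, the sliding clamp, read 228 and 266 CPM at bcat 8 h against 85.6 and 102 CPM (1.38 ± 0.17, n = 2 each, edgeR adjusted p = 7.43e-07). For all 3 the groups did not overlap. In the difference between arms, the change with CHIR99021 was smaller for 14 S phase genes at 48 h and 10 at 72 h and larger for 0.

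Mitotic genes (20 tested) did not follow the same order: 16 were lower at CHIR99021 8 h, 12 at bcat 8 h and 14 at Wnt3a 96 h, and 6 were higher at Wnt3a 24 h, where 58 histone genes were lower. The shares of all genes in these directions were 11.7%, 8.01%, 21.0% and 9.32%, in the same order. CDKN1A, the p21 inhibitor of CDK2, read 55.4 and 38.02 CPM at CHIR99021 48 h against 17.0 and 20.2 CPM (1.33 ± 0.21, n = 2 each, edgeR adjusted p = 1.03e-05), and 17.0 and 20.1 CPM at Wnt3a 96 h against 3.88 and 6.71 CPM (1.62 ± 0.24, n = 2 each, edgeR adjusted p = 3.52e-06). It was lower at bcat 72 h (-0.96 ± 0.29, n = 2 each, edgeR adjusted p = 0.0120). Of 10 inhibitors tested 5 were higher and 1 lower at CHIR99021 48 h (15.7% and 18.1% of all genes).

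Replication-independent variants (11 tested) and histone chaperones (17 tested) were followed as well. At bcat 72 h 6 variants were higher and 0 lower (13.6% of all genes in each direction), and at Wnt3a 96 h 2 were higher and 7 lower (18.8% and 21.0%). H2AFX, the H2A variant of the DNA damage response, read 37.5 and 38.8 CPM at Wnt3a 96 h against 63.7 and 98.9 CPM (-1.14 ± 0.18, n = 2 each, edgeR adjusted p = 5.53e-06). H2AFY2, which encodes a macroH2A, was higher late in every arm, with 132 and 130 CPM at CHIR99021 48 h against 28.97 and 27.8 CPM (2.21 ± 0.15, n = 2 each, edgeR adjusted p = 3.49e-13) and 99.2 and 88.6 CPM at Wnt3a 96 h against 19.4 and 26.8 CPM (1.94 ± 0.16, n = 2 each, edgeR adjusted p = 4.28e-11). Chaperones were higher at bcat 48 h (9 higher, 0 lower, against 11.2% and 10.1% of all genes) and lower at Wnt3a 96 h (12 lower, 0 higher, against 21.0% and 18.8%).

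Other RNAs without a long poly(A) tail (26 tested) moved with the members at some times, and their part in the histone results was not tested. They were higher in 10 cases and lower in 0 both at CHIR99021 48 h and at bcat 72 h, but at bcat 48 h 1 was higher, at Wnt3a 24 h 6 were higher and 0 lower while 58 histone genes were lower, and in bcat 0 h cells 21 were higher than in CHIR99021 0 h cells and 0 lower while 32 histone genes were lower. Of all genes 15.7%, 13.6%, 11.2%, 9.32% and 6.06% were higher in these comparisons, in the same order, and 18.1%, 13.6%, 10.1%, 10.9% and 9.60% lower. RN7SK, an abundant small nuclear RNA, read 10305 and 9845 CPM at CHIR99021 48 h against 4048 and 5956 CPM (1.01 ± 0.18, n = 2 each, edgeR adjusted p = 7.23e-05). The median log2 change of long intergenic RNAs exceeded that of protein-coding genes by 0.53 at Wnt3a 24 h, 0.70 at 96 h and 0.38 at 120 h, and by 0.21 at CHIR99021 48 h.

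Across the 19 group means, a member's log2 level followed the log2 sum of the other members with a median Pearson r of 0.911 over 73 members, 50 of them above 0.8, from -0.33 to 0.987. The points share libraries and scaling, and the values are descriptions. The 5 genes outside the list most like the summed level were H2BFS, an H2B-related gene whose symbol the rule does not match (r = 0.971), PRDX2 (0.917), NUDT11 (0.912), FANCI (0.911) and NONO (0.905), over the same 19 groups. The median r was 0.622 for S phase genes, led by the DNA ligase gene LIG1 at 0.874, 0.293 for the genes of histone mRNA transcription and processing, and -0.03 for all 24231 other genes tested.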

How the data were processed

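The analysis used 38 deposited columns of total RNA. The deposited table held estimated counts per gene, made with kallisto 0.43.0 per the submitters' processing notes; build, annotation and strand setting: not given in the sources used here. Each column was estimated counts times 1 constant (0.265 to 6.58). It was divided by the column's commonest value above 0 and rounded, and 56.8% to 81.1% of values up to 20 then lay within 0.1 of a whole number. Depth (2.45 to 65.7 M) limits counting error only.

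A single edgeR 4.0.16 quasi-likelihood model (R 4.3.3, limma 3.58.1) with 19 groups covered all 37 distinct libraries, with TMM scaling, trended dispersion, robust estimation and filterByExpr, and 18 residual degrees of freedom. The procedure was tested on simulated data. Alternatives were DESeq2 1.42.0, other scalings, no filter, the counts as deposited, a replicate block, only the arms compared, and leaving out libraries.

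Positions and transcripts came by symbol from GENCODE release 29, promoters from RefSeq. Named members were the 3 of highest mean CPM per class, up to 3 per direction with the largest change in each CHIR99021 or bcat comparison and difference (called, 5 CPM or more in the higher group, no overlap), HIST2, HIST3 and HIST4 members called in 3 or more comparisons, testis-type members and those known to give polyadenylated transcripts. Up to 4 genes per list and the 5 most similar genes outside were eligible. HIST1H4B, HIST1H4E, HIST2H2AA4 and HIST2H4B fall outside this and were chosen after their values were seen. Members, lists and rules were chosen with earlier results of these data known.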

Additional observations from a re-analysis of the deposited data

Results flagged for a closer look

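The interaction test found that the change with CHIR99021 differed from the change in bcat cells for 3 members at 8 h, 21 at 16 h, 2 at 24 h, 25 at 48 h and 55 at 72 h (edgeR, Benjamini-Hochberg over all genes tested, 2 libraries in each of 4 groups). Values are the change with CHIR99021 minus the change in bcat cells (log2) with the standard error.

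At 8 h the members were HIST1H1A (-1.57 ± 0.44, adjusted p = 0.0481), HIST1H2BB (-1.36 ± 0.32, adjusted p = 0.0152) and HIST1H3C (-1.36 ± 0.36, adjusted p = 0.0344). At 16 h the largest differences were those of HIST1H3C (-1.50 ± 0.35, adjusted p = 0.0180), HIST1H2BB (-1.35 ± 0.32, adjusted p = 0.0173) and HIST1H2BJ (-1.28 ± 0.21, adjusted p = 0.000518). At 24 h they were HIST1H2AK (-1.29 ± 0.37, adjusted p = 0.0350) and HIST3H2BB (-0.80 ± 0.20, adjusted p = 0.0156). Of these calls at 8, 16 and 24 h only that of HIST1H2BJ stood whichever of the libraries compared was left out. HIST1H2BB, for example, had an adjusted p of 0.285 at 8 h and 0.259 at 16 h without bcat 0 h replicate 2, and HIST1H2AK had 0.166 at 24 h without bcat 0 h replicate 1.

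At 48 h HIST1H2BB (3.18 ± 0.41, adjusted p = 1.40e-06) and HIST1H3C (1.82 ± 0.48, adjusted p = 0.00801) had differences of the opposite sign to those at 8 and 16 h. The other 23 were negative, led by HIST1H2AK (-1.55 ± 0.36, adjusted p = 0.00237), HIST3H2BA (-1.42 ± 0.41, adjusted p = 0.0159) and HIST3H2BB (-1.41 ± 0.20, adjusted p = 5.12e-06). HIST3H2BA was no longer called without bcat 0 h replicate 1 (adjusted p = 0.0656), CHIR99021 0 h replicate 2 (adjusted p = 0.0905) or CHIR99021 48 h replicate 2 (adjusted p = 0.0741).

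At 72 h 1 difference was positive, that of HIST1H1A (3.21 ± 0.72, adjusted p = 0.00435), which had 1 and 2 counts in the bcat 72 h libraries. The call was lost without bcat 0 h replicate 2 or bcat 72 h replicate 1. The 54 negative ones were led by HIST1H2AK (-2.81 ± 0.35, adjusted p = 4.30e-06), HIST3H2BA (-2.28 ± 0.41, adjusted p = 0.000543) and HIST1H4H (-1.77 ± 0.23, adjusted p = 9.79e-06).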

How the results depend on the processing

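Members called, with the range on leaving out 1 library: 13 for CHIR99021 8 h (5 to 11), 10 for CHIR99021 16 h (3 to 9), 5 for CHIR99021 24 h (1 to 3), 43 for CHIR99021 48 h (29 to 39), 3 for CHIR99021 72 h (2 to 11), 12 for bcat 8 h (7 each time), 36 for bcat 16 h (12 to 25), 4 for bcat 24 h (1 to 4), 58 for bcat 48 h (54 to 56), 61 for bcat 72 h (55 to 60), 1 for Wnt3a 8 h (0 to 18), 58 for Wnt3a 24 h (16 to 62), 3 for Wnt3a 48 h (1 to 15), 2 for Wnt3a 72 h (5 to 6), 67 for Wnt3a 96 h (62 to 67), 62 for Wnt3a 120 h (34 to 65), 3 for the difference between arms at 8 h (0 to 3), 21 for the difference between arms at 16 h (2 to 17), 2 for the difference between arms at 24 h (0 to 4), 25 for the difference between arms at 48 h (7 to 22), 55 for the difference between arms at 72 h (41 to 56), 2 for CHIR99021 16 h against 8 h (0 to 2), 1 for CHIR99021 24 h against 16 h (0 to 2), 57 for CHIR99021 48 h against 24 h (42 to 54), 34 for CHIR99021 72 h against 48 h (7 to 43), 21 for bcat 16 h against 8 h (5 to 12), 1 for bcat 24 h against 16 h (0 each time), 61 for bcat 48 h against 24 h (52 to 56), 2 for bcat 72 h against 48 h (0 to 3), 34 for bcat 0 h against CHIR99021 0 h (23 to 32), 35 for bcat 0 h against Wnt3a 0 h (18 to 47), 7 for Wnt3a 0 h against CHIR99021 0 h (4 to 13). With DESeq2 the counts that moved by over 1.5 times were 11 for CHIR99021 72 h, 19 for bcat 8 h, 7 for bcat 24 h, 2 for Wnt3a 8 h, 5 for Wnt3a 48 h, 6 for CHIR99021 16 h against 8 h, 5 for CHIR99021 24 h against 16 h, 7 for bcat 24 h against 16 h, 6 for bcat 72 h against 48 h, 12 for Wnt3a 0 h against CHIR99021 0 h. With upper quartile scaling the counts that moved by over 1.5 times were 6 for CHIR99021 72 h, 1 for the difference between arms at 8 h, 2 for CHIR99021 24 h against 16 h, 2 for bcat 24 h against 16 h. With DESeq2 size factors the counts that moved by over 1.5 times were 7 for CHIR99021 72 h, 1 for the difference between arms at 8 h, 2 for bcat 24 h against 16 h. Without the 4 libraries of high ribosomal RNA or low depth the counts that moved by over 1.5 times were 8 for CHIR99021 72 h, 15 for bcat 16 h, 0 for bcat 24 h, 0 for Wnt3a 8 h, 14 for Wnt3a 48 h, 6 for Wnt3a 72 h, 1 for the difference between arms at 8 h, 5 for the difference between arms at 16 h, 1 for the difference between arms at 24 h, 10 for the difference between arms at 48 h, 6 for CHIR99021 16 h against 8 h, 0 for bcat 24 h against 16 h, 1 for bcat 72 h against 48 h, 14 for Wnt3a 0 h against CHIR99021 0 h. Fitting only the arms compared the counts that moved by over 1.5 times were 12 for CHIR99021 72 h, 19 for bcat 8 h, 8 for bcat 24 h, 0 for Wnt3a 8 h, 5 for the difference between arms at 8 h, 4 for the difference between arms at 24 h, 7 for CHIR99021 16 h against 8 h, 3 for CHIR99021 24 h against 16 h, 4 for bcat 24 h against 16 h, 4 for bcat 72 h against 48 h. With no filter on low counts the counts that moved by over 1.5 times were 11 for bcat 24 h, 37 for the difference between arms at 16 h, 8 for the difference between arms at 24 h, 5 for bcat 24 h against 16 h, 11 for Wnt3a 0 h against CHIR99021 0 h. On the counts as deposited the counts that moved by over 1.5 times were 2 for Wnt3a 8 h, 0 for CHIR99021 24 h against 16 h, 0 for bcat 24 h against 16 h. The cause was not tested. For the 112 pairs of a member and a comparison that were recomputed, values under alternatives kept their side of the threshold in 1283 cases, lost the call in 135 and gained it in 1 (HIST1H1C, the difference between arms at 72 h, fitting only the arms compared, adjusted p = 0.0425), and no call turned to the opposite sign.

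For the summed level, plain library totals gave -0.083 for bcat 24 h (0.17 with TMM), 0.56 for bcat 48 h (0.98) and 0.0389 for CHIR99021 16 h (-0.19). The sign also changed for CHIR99021 24 h (0.0144, with TMM -0.15), Wnt3a 72 h (0.0398, with TMM -0.04) and Wnt3a 0 h over CHIR99021 0 h (0.157, with TMM -0.069). Totals without ribosomal RNA and mitochondrial genes gave 0.29 for bcat 24 h. Counting members with no counts in a group at their bound moved the medians by -0.0164 to 0.0269.

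The labels do not say whether same-numbered replicates were handled together. No shared deviation was seen between them: same-numbered deviations correlated with medians of -0.018 (bcat), 0.001 (CHIR99021) and -0.002 (Wnt3a) over 15 pairs each. A replicate block moved 1 count by over 1.5 times, the difference between arms at 24 h, to 5. Counts against Wnt3a 0 h rest on 1 library of 2.45 M and 1 of 65.7 M counts, and every group on at most 2 libraries.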

Other observations

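HIST1H4K, an H4 gene with no 31-base word of its own, had 354 counts in CHIR99021 16 h replicate 2 and 0 in every other library. In GENCODE, HIST1H2AL lies within the span of HIST1H2BN, introns included, on the same strand over 393 bases. HIST1H2AM shares 350 bases with the span of HIST1H3J on the same strand. Of the 31-base words of HIST1H2AL 76.9% occur in no other gene, beside 12.9% for HIST1H2AM, so some of their reads may not be told apart. HIST1H4K, HIST2H2AA4, HIST2H2BA, HIST2H2BC and HIST2H2BD were called in 0 of the 16 comparisons with 0 h by edgeR.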
